A study of Mus musculus with 8 samples.

Results

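Glycolysis breaks glucose down to pyruvate and lactate through a chain of enzymes, several of which exist as isoforms encoded by separate genes. Hexokinase traps glucose in the cell, phosphofructokinase sets the pace of the pathway under control of the bifunctional enzyme Pfkfb3, aldolase and enolase carry it through its middle steps, pyruvate kinase closes it, and lactate dehydrogenase exchanges pyruvate and lactate. In fat cells the pathway also supplies glycerol for triglyceride synthesis, and insulin raises glucose entry. The 10 genes described here are the hexokinases Hk1 and Hk2, the phosphofructokinases Pfkl and Pfkp, Pfkfb3, the aldolase Aldoa, the enolase Eno2, the pyruvate kinase Pkm, and the lactate dehydrogenases Ldha and Ldhb. They were chosen by name, with 1 probe set a gene (the brightest on average among probe sets carrying a single gene symbol), and are 10 of 18193 genes measured.

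The data were 8 Affymetrix mouse arrays of total RNA from 3T3-L1 adipocytes, a mouse cell line that differentiates from preadipocytes in culture. Cells had been made insulin resistant with tumor necrosis factor (TNF, n = 3), dexamethasone (Dex, n = 3) or chronic insulin (CI, n = 2), and every group also received MnTBAP, a manganese porphyrin antioxidant, for the last 6 hours. The study's authors state that MnTBAP restored insulin responsiveness in each of these models in their earlier work. They measured it as movement of a glucose transporter to the cell surface. No untreated cells and no cells without MnTBAP were analysed here, so each value is relative to another insulin resistance model treated with MnTBAP. The labels do not say whether arrays of a group were separate cultures, so the spread between them may be technical. All levels below are log2 intensities, and a gene was called different when limma's adjusted p was under 0.05 and the log2 difference over 0.5 in size. Fewer cells expressing a gene and less RNA per cell cannot be told apart in bulk RNA.

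The labels name the cells both adipose cells and preadipocytes. The adipokine gene Adipoq read 14.31 to 14.32 in TNF arrays, 14.36 to 14.39 in Dex arrays and 14.35 to 14.38 in CI arrays. Of 6 macrophage and leukocyte markers Ptprc was the dimmest, at 4.46 to 4.77 over the 8 arrays. Lyz2 read 10.05 to 11.06 and Csf1r 8.44 to 8.92, both above the median gene at 7.92. The summed linear level of the adipocyte markers was 81679 to 84200 in TNF arrays, 97391 to 100318 in Dex arrays and 100824 to 101237 in CI arrays. Of 7 measured markers 4 were called lower in TNF than CI (5.23% of all genes) and 2 lower in Dex than CI (5.67%). Preadipocyte and fibroblast markers (5 measured) summed to 13676 to 16509 in TNF arrays, 7767 to 9287 in Dex arrays and 12146 to 12234 in CI arrays. Among these 5, 3 were called higher in TNF than in Dex (4.14% of all genes). The 6 macrophage and leukocyte markers summed to 2810 to 2904 in TNF arrays, 1783 to 1808 in Dex arrays and 2066 to 2069 in CI arrays. Only Lyz2 of these 6 was called, higher in TNF than CI (3.00% of all genes) and than Dex (4.14%). The 3' minus 5' difference of the beta-actin control was 0.76 ± 0.06 in TNF, 0.58 ± 0.15 in Dex and 0.60 ± 0.09 in CI (SD, n = 3, 3 and 2). The part these shifts played in the glycolytic values was not tested, except that the fits were repeated with the beta-actin value as a covariate.

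Ldha and Ldhb encode the A and B subunits of the lactate dehydrogenase tetramer, and Pfkfb3 makes the activator of phosphofructokinase. These genes carry an isoform contrast and the most negative gene difference between models described below, so their promoters are shown. The sequences are the 250 bases before the RefSeq start on the GRCm38.p6 assembly, written 5' to 3' on the gene's strand. Capitals mark ACGTG on either strand, a form of the core motif bound by hypoxia-inducible factors. Its other form, GCGTG, was not searched for. The window before the first Ldha start is chr7:46845554-46845803 (plus strand), that before the Ldhb start chr6:142507958-142508207 (minus strand) and that before the first Pfkfb3 start chr2:11553930-11554179 (minus strand).
Ldha: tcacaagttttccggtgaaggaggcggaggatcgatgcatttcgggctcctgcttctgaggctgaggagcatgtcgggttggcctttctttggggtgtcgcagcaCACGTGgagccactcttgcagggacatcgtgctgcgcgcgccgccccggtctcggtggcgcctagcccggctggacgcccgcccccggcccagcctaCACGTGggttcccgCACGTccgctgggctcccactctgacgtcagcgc
Ldhb: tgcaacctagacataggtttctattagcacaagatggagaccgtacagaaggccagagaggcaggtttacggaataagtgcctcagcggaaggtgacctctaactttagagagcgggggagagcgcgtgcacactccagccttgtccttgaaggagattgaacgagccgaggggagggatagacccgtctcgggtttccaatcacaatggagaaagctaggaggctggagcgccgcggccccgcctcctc
Pfkfb3: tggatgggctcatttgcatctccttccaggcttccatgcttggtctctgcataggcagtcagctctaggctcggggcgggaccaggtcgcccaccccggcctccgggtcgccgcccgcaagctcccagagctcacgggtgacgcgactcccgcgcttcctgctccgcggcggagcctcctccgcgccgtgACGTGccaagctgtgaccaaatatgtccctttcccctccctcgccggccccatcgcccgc
The Ldha window holds capitals in several places, the Ldhb window none, and the Pfkfb3 window 1 run. The Ldhb window does hold GCGTG, so its lack of capitals is for ACGTG alone. Each of Ldha and Pfkfb3 has a second start: the window before that of Ldha (chr7:46846832-46847081) held 0 matches, as for Ldhb, and that of Pfkfb3 (chr2:11502091-11502340) 2 overlapping ones, so the difference between Ldha and Ldhb depends on the start chosen. CACGTG reads as the motif on both strands, so its runs overlap. Over the 16 promoters of the 10 genes, 7 held ACGTG, belonging to 5 genes (Hk2, Pfkfb3, Aldoa, Pkm and Ldha), against 16.6% of 32851 promoters of the same length. Of the 7, the Aldoa windows overlap and hold the same site, which is counted for both. The NF-kB motif, GGGA and TTCC with any 2 bases between them, was in 0 of 16 (1.21% of all promoters) and the glucocorticoid receptor motif, GNACA and TGTNC with any 3 bases between them, in 0 of 16 (0.387%). These are matches of letters, and no match says only that these letters are not in this window.

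Pfkfb3 was lower in both TNF and Dex than in CI, and its TNF difference was the most negative of the 10 genes. Its level was 9.42, 9.25 and 8.99 in the 3 TNF arrays, 10.04, 10.29 and 9.88 in the 3 Dex arrays and 10.89 and 11.03 in the 2 CI arrays. No array of any model overlapped another model. TNF was 3.34-fold lower than CI (log2 difference -1.74 ± 0.14 SE, limma adjusted p = 9.9e-06), Dex 1.86-fold lower than CI (-0.89 ± 0.14, limma adjusted p = 6.6e-04) and TNF 1.80-fold lower than Dex (-0.85 ± 0.12, limma adjusted p = 4.4e-04). Across all genes 3.00% were called higher and 5.23% lower in TNF than CI, 3.33% higher and 5.67% lower in Dex than CI, and 4.14% higher and 3.16% lower in TNF than Dex.

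The enolase Eno2, known as the neuronal isoform, differed in the other direction. It was 6.87, 7.44 and 7.60 in TNF arrays, 5.52, 6.24 and 6.28 in Dex arrays and 5.19 and 5.41 in CI arrays, all below the median gene at 7.92. Every TNF array was above every Dex and CI array. TNF was 4.01-fold higher than CI (log2 difference 2.0 ± 0.23 SE, limma adjusted p = 1.6e-04) and 2.45-fold higher than Dex (1.29 ± 0.21, limma adjusted p = 0.0011). The Dex difference from CI, 0.71 ± 0.23, missed the threshold (limma adjusted p = 0.051) although the arrays did not overlap. Probe background was not estimated, and the size of a difference between such dim values is less certain than its direction.

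Ldhb, on its brightest probe set, was lower than CI by the same amount in both models. It read 11.06, 11.37 and 11.19 in TNF arrays, 11.19, 11.25 and 11.18 in Dex arrays and 12.12 and 12.28 in CI arrays. Both CI arrays lay above all 6 others, whose TNF and Dex values overlapped. The differences from CI were -0.99 ± 0.09 in TNF (limma adjusted p = 4.0e-05) and -0.99 ± 0.09 in Dex (limma adjusted p = 2.1e-05), each near 2-fold (1.99-fold lower in TNF, 1.99-fold lower in Dex), and TNF and Dex differed by 0.0010 ± 0.08. Its partner Ldha read 12.44, 12.94 and 12.81 in TNF arrays, 12.40, 12.36 and 12.74 in Dex arrays and 12.87 and 12.99 in CI arrays. TNF overlapped both other models, while every Dex array lay below the CI arrays. No Ldha difference was called: -0.20 ± 0.15 in TNF (limma adjusted p = 0.35) and -0.43 ± 0.15 in Dex (limma adjusted p = 0.057).

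Of the hexokinases, the widely expressed Hk1 differed between TNF and Dex. It read 10.18, 10.55 and 10.61 in TNF arrays, 9.48, 9.57 and 9.89 in Dex arrays and 9.94 and 10.25 in CI arrays, so every TNF array was above every Dex array. TNF was 1.75-fold higher than Dex (0.81 ± 0.13, limma adjusted p = 0.0013). Against CI the differences were 0.35 ± 0.15 in TNF (limma adjusted p = 0.12) and -0.45 ± 0.15 in Dex (limma adjusted p = 0.054). The insulin-responsive Hk2 read 11.30 to 11.64 in TNF arrays, 11.38 to 11.55 in Dex arrays and 11.24 to 11.35 in CI arrays, and no difference was called (0.24 ± 0.11 in TNF, 0.19 ± 0.11 in Dex).

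The liver-type phosphofructokinase Pfkl was lower in Dex than in both others. It read 11.45, 11.69 and 11.82 in TNF arrays, 10.85, 11.08 and 11.14 in Dex arrays and 11.47 and 11.84 in CI arrays. All 3 Dex arrays lay below the other 5, and TNF and CI overlapped. Dex was 1.55-fold lower than CI (-0.63 ± 0.14, limma adjusted p = 0.0059), TNF 1.55-fold higher than Dex (0.63 ± 0.12, limma adjusted p = 0.0032), and TNF and CI differed by -0.0012 ± 0.14. The Dex call against CI was lost without CI replicate 2, at -0.45, and the TNF difference from Dex was 0.57 with the beta-actin covariate (limma adjusted p = 0.061). The platelet-type Pfkp read 9.52, 9.71 and 9.76 in TNF arrays, 9.82, 9.86 and 10.03 in Dex arrays and 10.17 and 10.20 in CI arrays. The models did not overlap. It was called lower in TNF than CI (-0.52 ± 0.09, limma adjusted p = 0.0023), while Dex stood at -0.29 ± 0.09, under the size threshold (limma adjusted p = 0.048). Without TNF replicate 1 the Pfkp difference of TNF from CI became -0.45, no longer past the size threshold. It also fell short with quantile normalization (-0.45), array weights (-0.48) and the median over its probe sets (-0.44).

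The aldolase Aldoa read 13.09, 13.40 and 13.33 in TNF arrays, 13.45, 13.37 and 13.45 in Dex arrays and 13.78 and 13.85 in CI arrays. Both CI arrays lay above the TNF and Dex arrays, which overlapped. It was called lower in TNF than CI (-0.54 ± 0.09, limma adjusted p = 0.0019), which fell short at -0.45 without TNF replicate 1, and was -0.39 ± 0.09 in Dex, under the size threshold (limma adjusted p = 0.011). Pkm, whose M1 and M2 splice forms are not told apart by its probe set, read 12.65, 12.81 and 12.79 in TNF arrays, 12.29, 12.31 and 12.36 in Dex arrays and 12.91 and 13.06 in CI arrays. The Dex arrays were the lowest and the CI arrays the highest, with no overlap. Dex was 1.59-fold lower than CI (-0.67 ± 0.08, limma adjusted p = 1.2e-04), and TNF stood at -0.23 ± 0.08 (limma adjusted p = 0.058). TNF was 0.43 ± 0.07 above Dex with no overlap, under the size threshold (limma adjusted p = 0.0012).

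**Figure D1:**
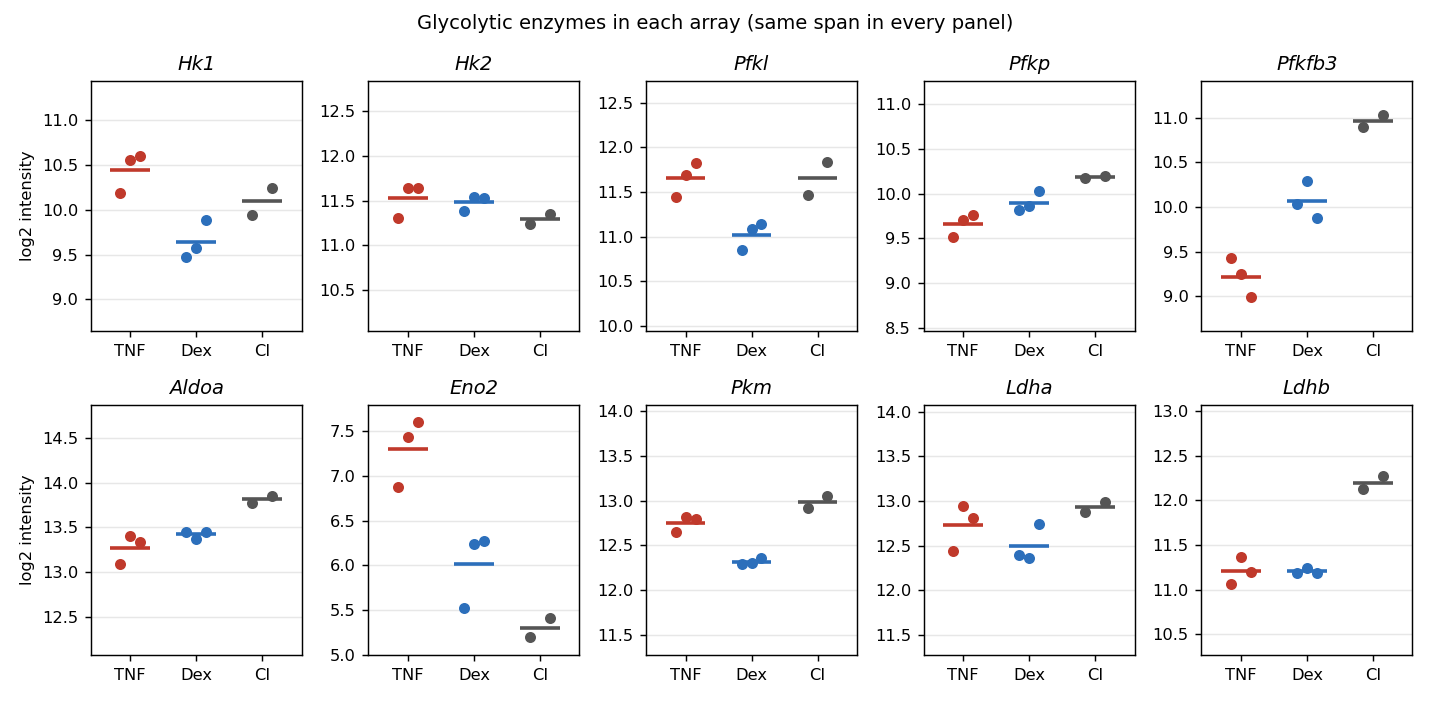
Log2 intensity of each of the 10 genes in every array, points for arrays and bars for group means, with the same span in each panel. Pfkfb3 and Ldhb are highest in the CI arrays, and Eno2 is highest in the TNF arrays.

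Over the 10 genes, 1 was called higher and 4 lower in TNF than CI, against 3.00% and 5.23% of all genes. In Dex against CI 0 were higher and 4 lower (3.33% and 5.67%), and in TNF against Dex 3 and 1 (4.14% and 3.16%). All but Eno2 lie above the median gene, where calls are commoner. A fit of only the genes above the median level called 783 lower in TNF and 789 in Dex than CI. Over all 18193 genes these counts were 951 and 1032. The brighter genes are fewer, so their counts are a larger share of the genes tested. The median difference of the 10 genes was -0.22, -0.44 and 0.14 in these comparisons, against 0.03, 0.02 and 0.01 over all genes. Any pair of these comparisons shares the arrays of 1 model.

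**Figure D2:**
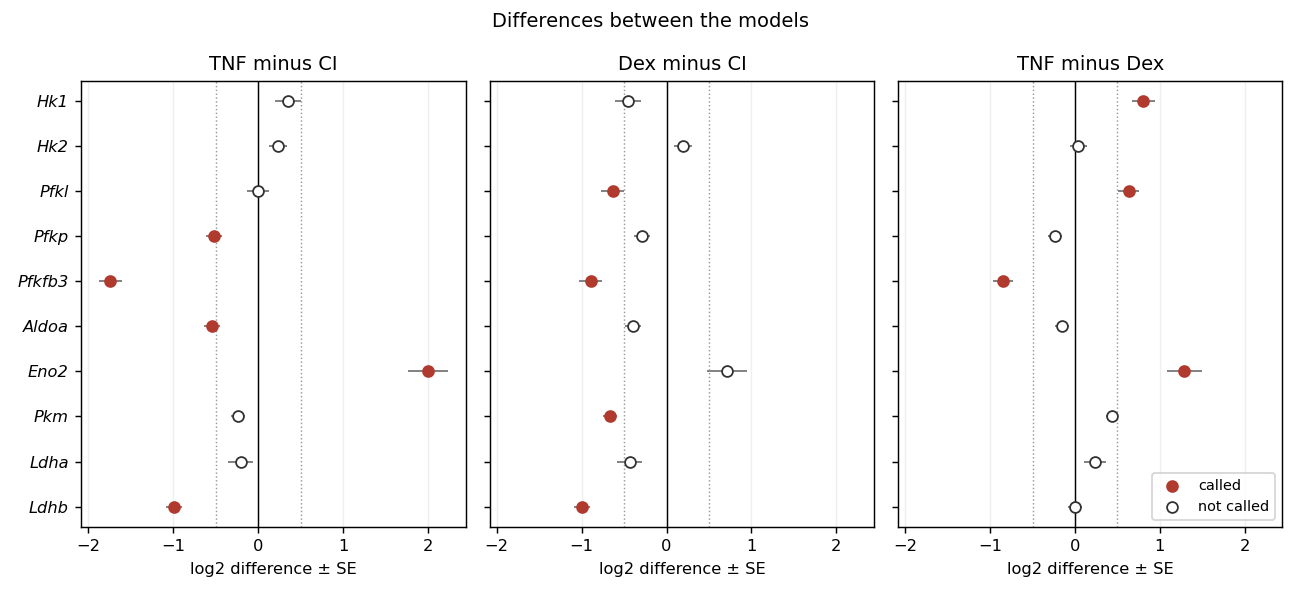
Log2 difference with its standard error for each gene in 3 comparisons, filled where called and open where not, with dotted lines at 0.5 in either direction. Pfkfb3 is called in every panel, and Eno2 in the comparisons of TNF with CI and with Dex.

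Isoform was then set against isoform within each array, which removes any scaling of the whole array. Only the shift between models is interpretable, since levels of different probe sets are not comparable. Hk2 minus Hk1 averaged 1.08 in TNF, 1.84 in Dex and 1.20 in CI (SD 0.04, 0.17 and 0.14), with an exact permutation p of 0.0071 over 560 assignments (smallest possible 0.0036, adjusted over 4 pairs 0.0095). The shift was 0.65 ± 0.10 in Dex against CI and -0.76 ± 0.09 in TNF against Dex, both called by limma. Pfkp minus Pfkl averaged -1.99 in TNF, -1.12 in Dex and -1.47 in CI (exact permutation p = 0.0036, adjusted 0.0071). TNF was 0.87 below Dex and 0.52 below CI. Ldhb minus Ldha averaged -1.52 in TNF, -1.29 in Dex and -0.74 in CI (exact permutation p = 0.011, adjusted 0.011), with shifts of -0.79 ± 0.12 in TNF and -0.56 ± 0.12 in Dex against CI. Aldoc, the brain-type aldolase, was near 6 and below the median gene. Its difference from Aldoa was -7.20 in TNF, -7.46 in Dex and -7.89 in CI. Against CI, most of this shift was that of Aldoa (-0.54 in TNF, -0.39 in Dex). Aldoc itself differed by 0.14 in TNF against CI, 0.034 in Dex against CI and 0.11 in TNF against Dex, none of them called. The Ldhb and Ldha pair missed the threshold without Dex replicate 1 (exact permutation, adjusted p = 0.076).

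**Figure D3:**
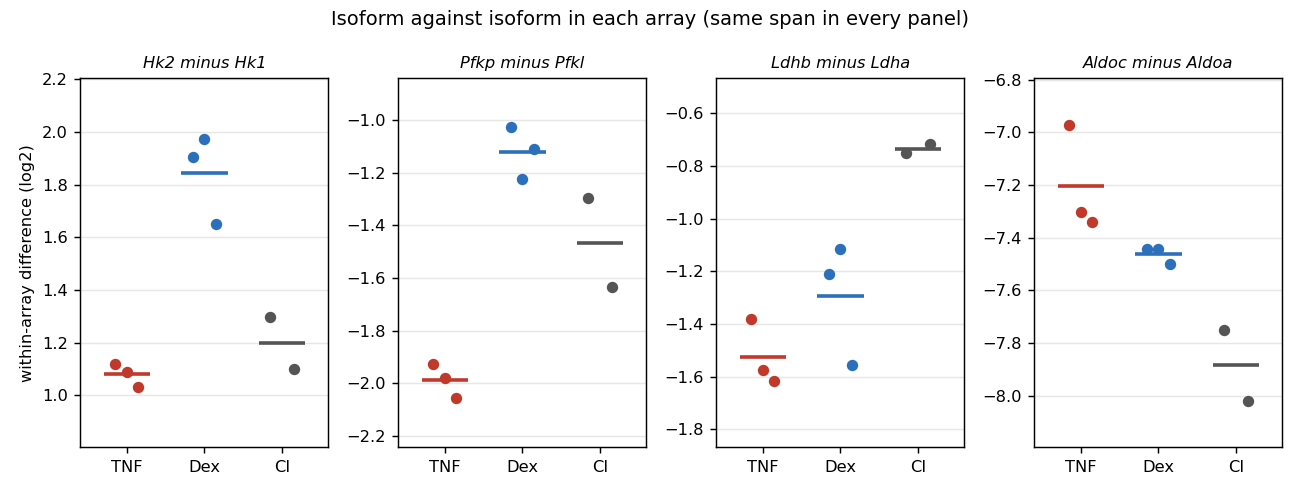
Difference between 2 isoforms in each array on the log2 scale, points for arrays and bars for group means, with the same span in each panel. Ldhb minus Ldha is highest in the CI arrays and Hk2 minus Hk1 highest in the Dex arrays.

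Other probe sets of these genes were compared as a check. All 4 Ldhb probe sets were called lower than CI in both models, at -0.97 to -1.09 in TNF and -0.99 to -1.33 in Dex. The equal difference in TNF and Dex held for the brightest only. The others gave -0.97 and -1.13, -1.06 and -1.33, and -1.09 and -1.20 in TNF and Dex. None was called between TNF and Dex. Of 5 Aldoa probe sets 4 were called lower in TNF and the fifth (mean level 11.50) stood at -0.14. The second Pfkfb3 probe set, at a mean of 7.12, gave -1.01 in TNF (called) and -0.37 in Dex. Neither of the other Pfkp probe sets was called in TNF against CI, at -0.44 and 0.06. A dim Pfkl probe set (mean 6.82) stood at 0.22 in Dex against CI where the brighter ones gave -0.63 and -0.53. The second Hk1 probe set, at a mean of 8.48, gave 0.52 in TNF against Dex (called), where the brightest gave 0.81. Hk2, Eno2, Pkm and Ldha had 1 single-symbol probe set each.

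**Figure D4:**
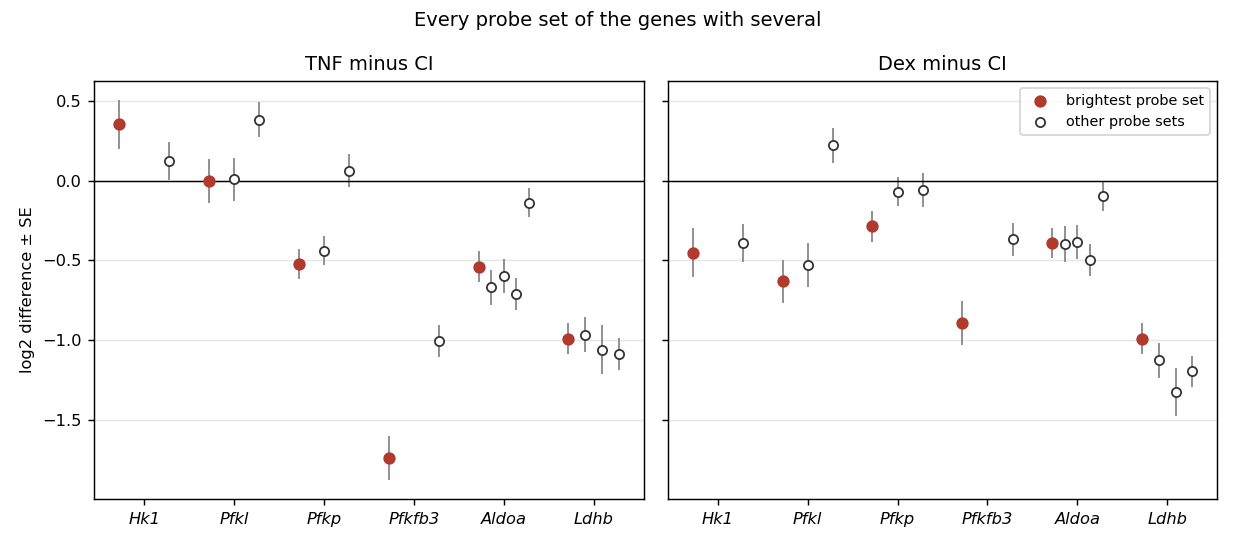
Log2 difference with standard error of every single-symbol probe set of 6 genes, filled for the brightest and open for the others, in order of brightness within a gene, for TNF minus CI at left and Dex minus CI at right. The 4 Ldhb probe sets lie together near -1 in both panels, and the dimmest Pfkl, Pfkp and Aldoa probe sets lie nearer 0 or above it.

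Of 23 other glycolytic genes 17 had a probe set of their own, and the rest were not analysed here. The control probe set at the 3' end of Gapdh, which was not in the fit, averaged 14.09 ± 0.08 in TNF, 13.85 ± 0.05 in Dex and 14.25 ± 0.01 in CI (SD, n = 3, 3 and 2). The insulin-responsive glucose transporter Slc2a4 was called lower in TNF (-0.63 ± 0.08) and Dex (-0.65 ± 0.08) than in CI. Tigar, a fructose bisphosphatase, was lower in TNF (-0.57 ± 0.07), Bpgm lower in TNF (-0.52 ± 0.10) and Dex (-0.58 ± 0.10), the lactate carrier Slc16a1 higher in TNF (0.51 ± 0.16), and the muscle enolase Eno3 higher in Dex (0.63 ± 0.08). The transporter Slc2a1 was higher in TNF than Dex (0.86 ± 0.20), and was 0.45 with the beta-actin covariate (limma adjusted p = 0.26). The Tigar call rests on the probe set used: with the median over its probe sets the difference was 0.0064 (limma adjusted p = 0.97). Bpgm in TNF was lost without CI replicate 2 or TNF replicate 1 (-0.43 each), with quantile normalization (-0.45), array weights (-0.47) and the median over its probe sets (-0.36). In Dex it was lost without CI replicate 2 (-0.50) and with that median (-0.40). Slc16a1 was lost without any of 5 arrays (0.41 to 0.52) and in 5 of 11 other settings, at 0.21 with the median over its probe sets, and Slc2a1 was lost without TNF replicate 3 (0.76) or Dex replicate 2 (0.70). Of these 17 genes, 1 was higher and 3 lower in TNF than CI (3.00% and 5.23% of all genes), and 1 and 2 in Dex than CI (3.33% and 5.67%). In TNF against Dex they were 1 and 0 (4.14% and 3.16%). Their medians were 0.11, -0.27 and 0.07, against 0.03, 0.02 and 0.01 over all genes. Of 12 genes of the hypoxia-inducible factor pathway outside glycolysis (Hif1a and known targets), 3 were higher and 0 lower in TNF than CI (3.00% and 5.23% of all genes). The 3 were Adm (1.11 ± 0.10), Ankrd37 (1.11 ± 0.15) and Ndrg1 (0.58 ± 0.08). Adm was also higher in Dex than CI (0.92 ± 0.10), where the collagen prolyl hydroxylase P4ha1 was lower (-0.71 ± 0.12). In TNF against Dex 4 of the 12 were higher and 0 lower (4.14% and 3.16% of all genes). These 4 were Ankrd37 (1.19 ± 0.14), P4ha1 (0.90 ± 0.11), Hif1a itself (0.77 ± 0.08) and the pyruvate dehydrogenase kinase Pdk1 (0.66 ± 0.18). The medians of the 12 were 0.23 in TNF against CI, -0.03 in Dex against CI and 0.27 in TNF against Dex. Over all genes these medians were 0.03, 0.02 and 0.01.

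Arrays of a model shared an order across the 10 genes. CI replicate 1 was below CI replicate 2 in all 10, against 52.8% of all genes, TNF replicate 1 was the lowest TNF array in 9 of 10 (37.9% of all genes; Pfkfb3 was the exception), and Dex replicate 3 was the highest Dex array in 7 (37.4%). Dex replicate 1 was the lowest Dex array in 6 of 10 (29.2% of all genes), so replicate 1 was most often the lowest in each model. Genes whose centred profile was nearest to Pfkfb3 over the 8 arrays were 2610528A11Rik (root mean square difference 0.22) and Abhd15 (0.23), to Eno2 Prkg2 (0.30) and Nrp2 (0.32), to Hk1 Rasl12 (0.10) and Fnbp1l (0.11), to Pfkl Garnl3 (0.10) and Trp53inp2 (0.10), and to Ldhb Lrrc8d (0.05) and Vps36 (0.06).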

How the data were processed

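The deposited values were probe set intensities on a linear scale, which the authors made from biotin-labelled cRNA arrays by robust multi-array averaging (RMA) with affyPLM per the study's methods. Whether they are antilogged RMA values is not given in the sources used here. They were log2 transformed with no pseudocount, control probe sets (64 of 45101) were set aside, and each gene was represented by its brightest single-symbol probe set (34958 had 1 symbol, 932 several, 9211 none). Gene names came from the platform annotation. Models were compared with limma 3.58.1 (R 4.3.3) by lmFit and eBayes over 18193 genes with 5 residual degrees of freedom and Benjamini-Hochberg adjustment. Isoform differences within arrays were tested by an exact permutation F test over 560 assignments, which has no direction. Groups came from the sample titles. The members, lists and rules were chosen with earlier results of these data known, and named genes are the members and the genes called in the listed sets. Scripts were tested on simulated data. Arrays correlated at 0.996 to 0.998 within a model and 0.986 to 0.991 between models. The number of arrays limits precision. Alternatives were quantile normalization, median centring, a filter on dim genes, other probe sets, a replicate block, 2 groups only, array weights, no size threshold, a beta-actin covariate and leaving out each array. Of 7 same-number pairs, 2 correlated above 0.1 (range -0.09 to 0.33), in deviations from the mean of each model. Deviations of the 2 CI arrays mirror each other, so pairs with CI cannot tell whether numbers pair the samples. Between TNF and Dex, arrays of the same number correlated at 0.33, -0.09 and 0.21. Those of different numbers correlated at -0.38 to 0.28, an overlapping range that does not settle it.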

Additional observations from a re-analysis of the deposited data

How the results depend on the processing

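Counts of calls kept within 1.5 times of the reported ones except as follows. Testing every probe set gave 2992 calls in TNF against CI (1085 higher, 1907 lower), 3305 in Dex against CI (1303 and 2002) and 2583 in TNF against Dex (1318 and 1265), and without the size threshold 4181 (1768 and 2413), 3925 (1675 and 2250) and 3800 (1838 and 1962), by construction. Without the size threshold the other glycolytic genes called were 7, 10 and 4. Quantile normalization and array weights each gave 5 other glycolytic genes in Dex against CI and 2 in TNF against Dex. The median over probe sets gave 1 such gene in TNF against CI. Among genes above the median level 0 of the 10 genes were higher in TNF than CI, since Eno2 is left out. A replicate block gave 7 of the 10 genes called in Dex against CI, 1 of them higher, and 5 other glycolytic genes. The genes gained under the block were Hk1 (-0.55), Ldha (-0.51) and Eno2 (0.57). Whether the numbers pair the samples is not known. With 2 groups only, and with the beta-actin covariate added after seeing the data, 1 of the 10 genes was higher in Dex than CI (Eno2), and that covariate gave 5 other glycolytic genes in Dex against CI and 0 in TNF against Dex. Under it Pfkl was 0.57 higher in TNF than Dex (limma adjusted p = 0.061, lost).

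Small differences changed sign: Pfkl in TNF against CI was 0.0741 with quantile normalization, 0.0625 with array weights and 0.00767 with the median over probe sets, and Ldhb in TNF against Dex -0.0262 with median centring. The called Tigar difference in TNF against CI disappeared with that median (0.00641, limma adjusted p = 0.97). With other probe sets, Hk2 minus Hk1 was 0.11 in TNF against CI, Pfkp minus Pfkl 0.0637 in TNF against CI and -0.51 in Dex against CI, and Ldhb minus Ldha 0.0331 in TNF against Dex. The Pfkp and Pfkl pair missed the threshold with the dimmest Pfkp probe set (exact permutation p = 0.082). The Aldoc and Aldoa pair missed it with the other Aldoc probe set (exact permutation p = 0.057) and with the dimmest Aldoa probe set (0.24). The cause was not tested.

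Leaving out 1 array gave 1237 to 1605 calls in TNF against CI (484 to 613 higher, 703 to 1054 lower), 1552 to 1795 in Dex against CI (523 to 670, 923 to 1155) and 1284 to 1420 in TNF against Dex (698 to 829, 567 to 615). Among the 10 genes, 3 to 5 were called in TNF against CI (1 higher, 2 to 4 lower), 3 to 6 in Dex against CI (0 to 1, 3 to 6) and 4 in TNF against Dex, with 2 to 4, 2 to 5 and 0 to 2 other glycolytic genes. Isoform pairs past the threshold were 3 to 4. Pfkfb3 in all 3 comparisons, Eno2 in TNF against CI and Dex, Ldhb in TNF and Dex against CI, and Pkm in Dex against CI kept their calls under each left-out array. For Pfkl in Dex, leaving out CI replicate 2 gave -0.45 with an adjusted p of 0.089 in limma, under the size threshold, Hk1 (-0.57) and Ldha (-0.55) were gained in Dex against CI without Dex replicate 3, Eno2 there without TNF replicate 1 (0.71) or Dex replicate 1 (0.96), and signs changed near 0 for Pfkl in TNF against CI (-0.18 to 0.18), Hk2 in TNF against Dex (-0.0155 to 0.15) and Ldhb in TNF against Dex (-0.0788 to 0.0736).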
